A study of Mus musculus with 25 samples.

Results

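The genes of the cytosolic ribosomal proteins (RP genes) were followed in RNA-seq data from mouse pituitaries in which RB was depleted and then re-expressed. The members were all gene symbols of either deposited table that name a protein of the large (Rpl, Rplp) or small (Rps, Rpsa) ribosomal subunit, without pseudogenes and without the S6 kinases. The rule found 79 genes: 44 of the large subunit, 30 of the small subunit and 5 paralogs (Rpl7l1, Rpl22l1, Rpl32l, Rps4l and Rps27l). The long-term table held 78 of them among 15315 genes, the short-term table held 74 among 14007, and 73 were in both.

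All mice were shRb animals, which carry an rtTA transactivator under the Rosa26 promoter and, at the Col1a1 locus, a GFP-linked shRNA against Rb that doxycycline (dox) switches on. The strain came from 1 shRNA and 1 embryonic stem cell clone. Because the Rosa26 promoter is broadly active, RB was depleted in many tissues, and whole snap-frozen pituitaries were sequenced rather than sorted tumor cells. The long-term experiment (libraries made by PolyA enrichment) compared 3 female mice after 6 weeks on dox (6w+dox), 4 mice after 12 weeks on dox (12w+dox, 2 females and 2 males) and 5 mice that had 6 weeks on dox followed by 6 weeks off dox (12w-res, 3 females and 2 males). The short-term experiment (libraries made by rRNA depletion) compared 3 males after 16 weeks on dox (16w +dox) with 4 females 1 day after dox removal (1d -dox), 3 males after 3 days (3d -dox) and 3 females after 5 days (5d -dox). Every group had received dox at some time, and no group without the transgenes was analysed here. Values were compared within an experiment only.

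Ribosomal proteins join with ribosomal RNA to form the ribosome, and their genes are among the most highly expressed in any cell. Their levels usually move together, since the subunits hold most of the proteins in equal numbers and unassembled proteins are degraded. Their mRNAs begin with a terminal oligopyrimidine (TOP) tract, a C followed by a run of pyrimidines, through which mTORC1 and LARP1 govern how well they are translated. RB holds back the E2F factors that drive S phase, and it also restrains RNA polymerases I and III, which make ribosomal RNA. The pituitary tumors of RB-deficient mice arise from the melanotrophs of the intermediate lobe, cells that make the hormone precursor POMC.

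The start regions of 6 members that recur below are printed to show the tract itself. Each runs from 10 bases before the annotated RefSeq start through the first 20 bases of the transcript (GRCm38.p6), and capitals mark a tract of a C and at least 4 pyrimidines that begins within 10 bases of the start.
Rpl38, chr11:114668570-114668599, plus strand: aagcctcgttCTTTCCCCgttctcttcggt
Rpl13a, chr7:45128726-45128755, minus strand: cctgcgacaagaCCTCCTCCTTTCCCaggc
Rps12, chr10:23787190-23787219, minus strand: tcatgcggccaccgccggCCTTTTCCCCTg
Rplp0, chr5:115559457-115559486, plus strand: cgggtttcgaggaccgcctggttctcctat
Rps3a1, chr3:86142649-86142678, minus strand: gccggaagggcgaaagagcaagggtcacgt
Rpl4, chr9:64173377-64173406, plus strand: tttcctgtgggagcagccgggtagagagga

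Rpl38, Rpl13a and Rps12 had tracts of 8, 14 and 11 bases, and no such tract began within 10 bases of the annotated start of Rplp0, Rps3a1 or Rpl4. In the Rplp0 window a C followed by 4 pyrimidines lies further downstream. Over the 59 members with a promoter in the RefSeq table, 36 (61.0%) had a tract within 10 bases of the start, against 34.4% of all 27025 genes with a promoter there. Within 40 bases of the start, 58 of the 59 members (98.3%) had such a tract, against 74.5% of all genes. In the window from 250 bases before to 50 after the start, 24 members (40.7%) held the ETS motif CCGGAAG on either strand, against 9.93% of all genes. A gene was counted if any of its promoter windows held the motif. The GC box GGGCGG was in 38 members (64.4% against 38.2%), and the YY1 motif AAGATGG in 9 (15.3% against 7.28%). The E2F motif (TTTCCCGC, TTTCGCGC, TTTGCCGC or TTTGGCGC) was in 2 members (3.39% against 2.61%), of which Rps3a1 was 1. Motif matches are descriptions of sequence and not measured binding.

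FPM values, the scale used below, are reads per gene divided by the library's size factor and set to a common depth. Rb1, the targeted gene, had 3.16 ± 1.70 FPM at 6w+dox (SD, n = 3), 3.21 ± 0.700 at 12w+dox (n = 4) and 18.2 ± 1.66 in 12w-res (n = 5), so that the long-term labels matched the knock-down and its release (limma log2 fold change of 12w-res against 12w+dox 2.35, SE 0.22, adjusted p = 3.00e-06). In the short-term mice GFP fell from a mean of 1246 FPM at 16w +dox to 11.7 at 5d -dox (limma adjusted p = 3.77e-08), while Rb1 had means from 4.19 to 5.12 FPM in the 4 groups. Reads on genes numbered from 1.91e7 to 2.90e7 per long-term mouse and from 9.57e6 to 1.30e7 per short-term mouse. Pomc alone took 12.9% to 23.0% of these reads at 12w+dox, 39.1% to 43.2% in 12w-res and 13.6% to 32.2% at 6w+dox.

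The RP genes were lower after 12 weeks on dox than after 6 weeks, and higher in 12w-res than at 12w+dox. In these whole-tissue samples, fewer cells of a type and less RNA per cell cannot be told apart. The median level over the members, on the log2(FPM + 0.5) scale, was 8.76, 8.62 and 7.66 in the 6w+dox mice. It was 7.69, 7.82, 7.84 and 7.35 in the 12w+dox mice and 8.70, 8.39, 8.33, 8.59 and 8.34 in the 12w-res mice. All 5 12w-res mice lay above all 4 12w+dox mice, whereas 6w+dox replicate 3 lay within the 12w+dox range and far from the other 6w+dox mice. The short-term medians were 5.67, 5.98 and 5.70 in the 16w +dox mice. They were 5.70, 5.66, 5.61 and 5.76 after 1 day off dox, 5.63, 5.60 and 5.35 after 3 days, and 5.83, 5.76 and 5.92 after 5 days. The 3d -dox mice lay just below all 16w +dox mice, and the 1d and 5d mice overlapped with them. The pooled SD within groups was 0.329 in the long-term and 0.122 in the short-term experiment.

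**Figure D1:**
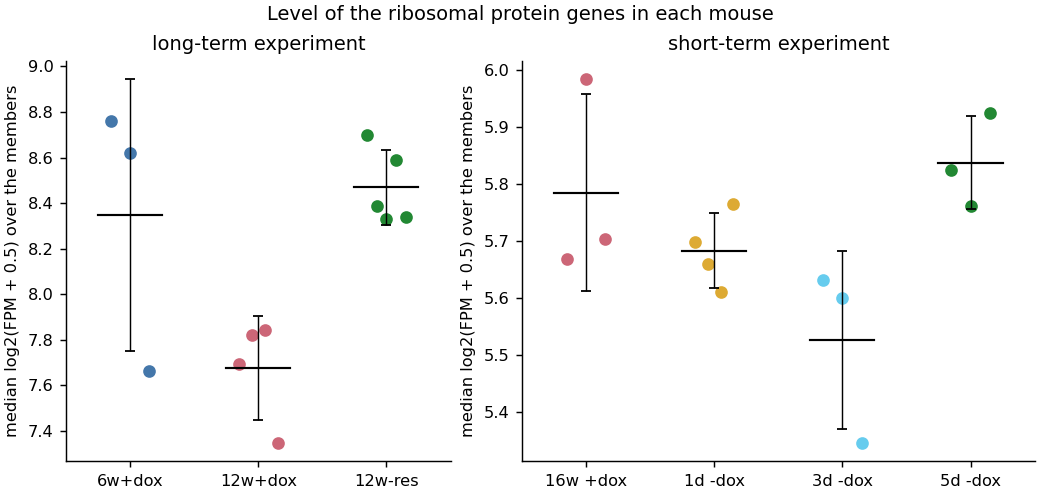
Median log2(FPM + 0.5) over the RP genes in each mouse, for the long-term groups (left panel) and the short-term groups (right panel). Points are mice and bars give the group mean and SD. The 12w-res mice (8.33 to 8.70) lie above the 12w+dox mice (7.35 to 7.84), 1 of the 6w+dox mice (7.66) lies with the 12w+dox mice, and the 3d -dox mice (5.35 to 5.63) lie just below the 16w +dox mice (5.67 to 5.98).

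As a share of all reads on genes the difference was smaller. RP genes took 2.38% ± 0.305 at 12w+dox (SD, n = 4), 2.57% ± 0.156 in 12w-res (n = 5) and 2.87% ± 0.537 at 6w+dox (n = 3). With Pomc taken out of the total, the shares were 2.92% ± 0.457, 4.34% ± 0.284 and 3.76% ± 1.08. In the short-term groups the share was between 1.57% and 1.66% on average. The scale therefore matters for the size of a difference. When total reads replaced the size factors, the median of all genes was -0.61 (log2) for 12w-res against 12w+dox, and the RP median stood 0.70 above it. With the size factors the RP median stood 0.76 above that of all genes.

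The first long-term comparison asked how the pituitary changed while tumors grew on dox. At 12w+dox 40 of the 78 RP genes were lower than at 6w+dox and 0 were higher (limma, adjusted p under 0.05), where 12.0% of all genes were lower and 10.4% higher. The median log2 fold change of the members was -0.67, against -0.0063 over all genes. Large and small subunit genes moved alike, with medians of -0.68 (22 of 44 lower) and -0.66 (16 of 30 lower). A fold change over 2 together with the adjusted p was reached by 8 members, against 7.20% of all genes in either direction, among them Rpl38, Rps29, Rpl31, Rpl39, Rpl36, Rps12 and Rpl35a. The 3 and 4 mice of the groups did not overlap for 15 members, all lower at 12w+dox, where 12.4% of all genes did not overlap in that direction.

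The count at 12w+dox rested on few mice. Without 6w+dox replicate 3, whose RP level was that of the 12w+dox mice, 68 members were lower. Without 6w+dox replicate 2 there were 3, without 6w+dox replicate 1 there were 9, and without 12w+dox replicate 4 there were 18. The share of all genes was not counted in these fits, so a change of power for every gene cannot be told from a change of the family. With each mouse left out in turn, the members' median minus that of all genes ranged from -1.01 to -0.44. The 6w+dox mice were all female, and among females alone 1 member was lower, where 2.98% of all genes were. Without the 12w+dox males alone 1 was lower as well (4.22% of all genes). The median of the members was -0.55 in both of these smaller fits.

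Rpl38, a large subunit protein known from a mouse with skeletal patterning defects, had 153, 232 and 69.9 FPM at 6w+dox and 49.97, 59.3, 51.4 and 43.6 FPM at 12w+dox. Its 12w-res mice had 163, 139.7, 82.7, 140.0 and 84.0 FPM. Every 12w+dox mouse was below every mouse of the other groups. The fitted log2 fold changes were -1.41 (SE 0.33) against 6w+dox and 1.199 (SE 0.29) for 12w-res against 12w+dox, with limma adjusted p of 0.00921 and 0.00498. Rps29, a zinc finger protein of the small subunit, had 78.7, 139 and 43.5 FPM at 6w+dox, 29.7, 36.5, 28.5 and 32.0 at 12w+dox and 113, 91.8, 39.96, 94.3 and 48.4 in 12w-res. Here too the 12w+dox mice were lowest without overlap, with log2 fold changes of -1.30 (SE 0.37, limma adjusted p = 0.0236) and 1.17 (SE 0.33, adjusted p = 0.0115). Of 28 alternatives per comparison, Rpl38 lost its call in 4 and 3, and Rps29 in 5 and 3. The weakest values were -0.63 and 0.55 for Rpl38 and -0.44 and 0.52 for Rps29. Rps12, which in Drosophila takes part in the cell competition that removes RP-mutant cells, had 519, 387 and 223 FPM at 6w+dox and 210.0, 196, 173 and 133 at 12w+dox.

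The second comparison asked what differed when dox was removed for the last 6 weeks, so that RB was re-expressed, instead of being given throughout. In 12w-res 67 of the 78 members were higher than at 12w+dox and 0 were lower (limma), where 19.4% of all genes were higher and 18.3% lower. The members' median was 0.75, against -0.0040 over all genes. On the recovered reads edgeR and DESeq2 gave 64 and 70 members higher, where 2946 and 3231 of all 15315 genes were higher. Under total reads as the scale the RP median kept its sign at 0.097, with 10 members higher and 3 lower, where the median of all genes was -0.61. The subunits again moved alike, with medians of 0.75 each (38 of 44 large and 27 of 30 small subunit genes higher). For 65 members the 12w-res mice lay wholly above the 12w+dox mice, where 17.1% of all genes did so. This comparison shares its 12w+dox mice with the one before, so that the opposite signs of the members are not independent of each other.

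Past the 2-fold limit in 12w-res were 13 members, against 11.3% of all genes in either direction, among them Rps3a1, Rpl29, Rps12, Rpl38, Rpl36a, Rps29, Rpl37, Rpl12, Rps28, Rps20, Rps26 and Rps23. Rps12 had 492, 439, 530.4, 547 and 500.0 FPM in 12w-res, all above its 12w+dox mice, a log2 fold change of 1.51 (SE 0.20, limma adjusted p = 6.85e-05). Rps26, a small subunit protein that sits at the mRNA exit channel, had a mean of 390 FPM ± 32.7 (SD, n = 5) against 188 ± 28.9 (n = 4). Its log2 fold change was 1.06 (SE 0.18, limma adjusted p = 0.000538). The 11 members that did not pass the test were Rpl9, Rpl11, Rpl15, Rpl18, Rpl22, Rpl34, Rpl7l1, Rps4l, Rps9, Rps14 and Rps19. Of these only Rpl34 had a fitted change below 0 (-0.31, SE 0.20), at 2 to 15 reads per long-term library, too few for a firm statement. Without 12w+dox replicate 4, which had the lowest RP level of its group, 44 members were higher. The share of all genes was not counted in that fit. With each mouse left out in turn, the members' median stood 0.64 to 0.82 above that of all genes. Without both 12w+dox males 21 members were higher (10.4% of all genes), and among females alone 5 (8.34% of all genes). The members' medians in these smaller fits were 0.65 and 0.64.

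The third comparison set 12w-res against 6w+dox, the stage at which dox had been removed. The members' median was 0.093, against -0.021 over all genes, and turned to -0.24 under total reads, where that of all genes was -0.33. Only 4 members were higher (Rps3a1, Rpl4, Rpl3 and Rpl5) and 0 were lower (limma), where 33.8% of all genes passed in either direction. Rps3a1 alone passed the 2-fold limit as well, against 11.6% of all genes. Without 6w+dox replicate 3 there were 2 higher and 16 lower members, and without 6w+dox replicate 1 there were 12 higher. The share of all genes was not counted in these fits. With each mouse left out in turn, the members' median minus that of all genes ranged from -0.24 to 0.33. The position of the 12w-res mice relative to 6w+dox therefore depended on which 6w+dox mice were used.

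**Figure D2:**
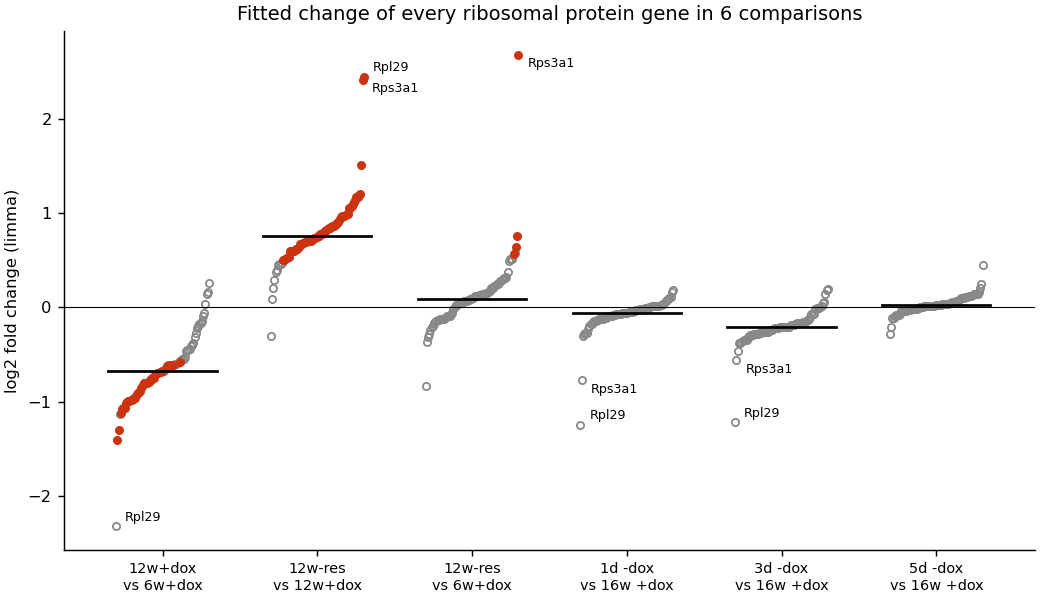
Fitted log2 fold change (limma) of every RP gene, sorted within each of 6 comparisons. Filled red points have an adjusted p under 0.05, open grey points do not, and black lines are medians over the members. The bulk of the family lies below 0 at 12w+dox (median -0.67) and above 0 in 12w-res against 12w+dox (median 0.75, or 0.097 under total reads, where all genes gave -0.61), while Rps3a1 and Rpl29 lie outside the family.

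Transcript length moved with these results. RP mRNAs are short, with a median of 946 bases over the longest coding transcripts of 77 members (383 to 5179). Among genes outside the family with at most 1000 bases (n = 624), the median log2 fold change was -0.56 at 12w+dox against 6w+dox, 0.27 in 12w-res against 12w+dox and -0.31 in 12w-res against 6w+dox. The 43 members of that length had medians of -0.74, 0.84 and 0.13. Genes outside the family with over 2000 bases moved by 0.077, -0.044 and 0.027, and the 7 members of that length by -0.17, 0.47 and 0.078.

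Per mouse, the median log2 level of the short genes outside the family minus that of the long genes was -0.0044, -0.15 and -0.95 at 6w+dox. It was -1.19, -0.95, -0.78 and -1.33 at 12w+dox and -0.49, -0.89, -0.85, -0.74 and -0.88 in 12w-res. The 12w+dox and 12w-res mice overlapped in this measure, and 6w+dox replicate 3 again lay with the 12w+dox mice. Relative to the short genes outside the family, the RP median was 4.52, 4.49 and 4.18 at 6w+dox, 4.46, 4.36, 4.23 and 4.21 at 12w+dox, and 4.92, 4.92, 4.82, 5.01 and 4.86 in 12w-res. On that measure the 12w-res mice lay above all others, and the 6w+dox and 12w+dox mice overlapped.

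With a smooth trend on transcript length taken out of each library, an alternative chosen after seeing the data, the median of the members was -0.17 at 12w+dox against 6w+dox, with 8 of 77 lower (10.3% of all genes with a length were lower). In 12w-res against 12w+dox the median was 0.56, with 63 higher (21.5% of all). In 12w-res against 6w+dox it was 0.34, with 28 higher (20.2% of all). The RP difference between 6 and 12 weeks on dox thus shrank most of the way to 0 with the trend removed, and that between 12w+dox and 12w-res kept most of its size. What set the length trend was not tested.

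**Figure D3:**
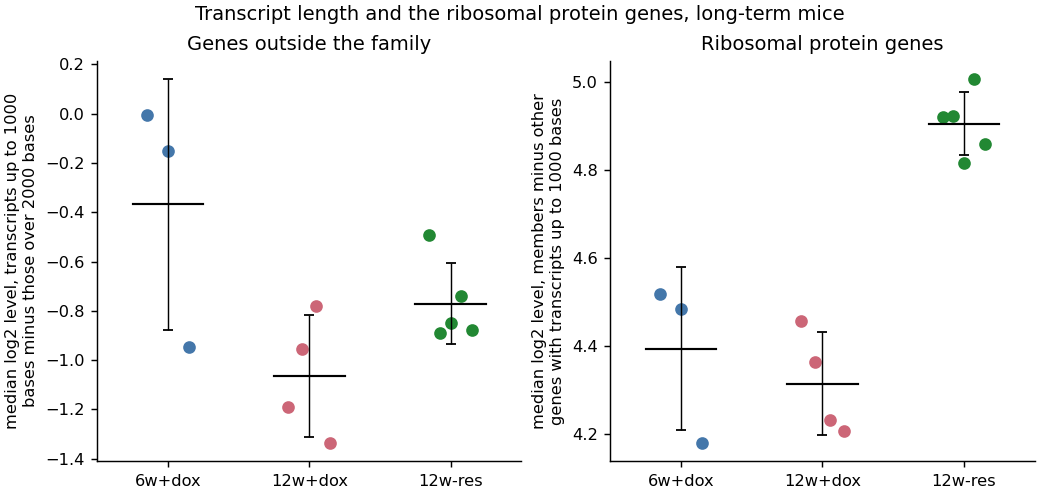
Left, median log2 level of genes outside the family with transcripts of at most 1000 bases minus those over 2000 bases, in each long-term mouse. Right, median log2 level of the RP genes minus that of the other genes of at most 1000 bases. Points are mice and bars the group mean and SD. On the left the groups overlap and 6w+dox replicate 3 (-0.95) lies with the 12w+dox mice, and on the right the 12w-res mice (4.82 to 5.01) lie above all others.

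Levels of cell type markers also moved between the groups. In 12w-res against 12w+dox, 7 of 7 endothelial markers were higher, and their summed level was 204 to 277 FPM against 63.8 to 132. All 9 fibroblast and pericyte markers were higher (929 to 1530 against 168 to 515 FPM), as were 8 of the 10 macrophage and leukocyte markers in the table (172 to 248 against 111 to 147 FPM). Of 7 pituicyte and stem cell markers 4 were higher, of 8 markers of other endocrine cells 2, and of 5 melanotroph markers 1 was higher and 2 were lower. Only 1 of 5 erythroid markers was in the table, at no more than 9.74 FPM. At 12w+dox against 6w+dox, 5 of 8 other endocrine markers were lower (1177 to 12622 against 57306 to 92654 FPM), with 3 of 7 endothelial, 3 of 9 fibroblast and 4 of 7 pituicyte markers. Of the 5 melanotroph markers 2 were higher there and 0 lower: Pax7 and Drd2, with log2 fold changes of 1.32 each (limma adjusted p = 0.000243 and 0.000480). The other 3 had fitted changes below 0 that did not pass, among them Pomc (-0.55, SE 3.50), and the median of the 5 was -0.24. The summed melanotroph markers, led by Pomc, were 109631 to 381378 FPM at 6w+dox, 96583 to 198910 at 12w+dox and 458945 to 581250 in 12w-res, so that the 12w-res mice lay above all others. Pomc itself gave a log2 fold change of 1.86 in 12w-res against 12w+dox (SE 3.08, limma adjusted p = 0.663). With SEs of 3.50 and 3.08 limma could hardly call Pomc, so the counts of melanotroph markers do not decide whether it differed. The part of these cells in the RP levels was not tested.

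Rps3a1 departed from the rest of the family. Its protein lies on the platform of the small subunit and contacts the initiation factor eIF3. It had 133, 89.8 and 71.8 FPM at 6w+dox and 89.2, 95.3, 86.8 and 230.1 FPM at 12w+dox. In 12w-res it had 516, 465, 874, 828 and 492.6 FPM, all above every mouse on dox. The log2 fold change was 2.42 (SE 0.29) against 12w+dox and 2.68 (SE 0.32) against 6w+dox, which is 1.66 and 2.59 above the median of the family. Both passed in limma (adjusted p = 3.02e-05 and 2.91e-05), and both passed under every alternative tried, between 1.76 and 2.94 and between 2.35 and 2.92. At 12w+dox against 6w+dox, where most members were lower, its log2 fold change was 0.26 (SE 0.33, limma adjusted p = 0.604).

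In the short-term mice Rps3a1 had 65.3, 74.8 and 64.6 FPM at 16w +dox, and 33.2, 53.6, 32.9 and 41.9 FPM 1 day after dox removal. At 3 days it had 41.5, 37.6 and 62.4 FPM, and at 5 days 73.7, 63.0 and 68.1 FPM. The 1d and 3d mice lay below all 16w +dox mice, and the 5d mice overlapped with them. The log2 fold changes were -0.77 (SE 0.17) at 1 day, -0.56 (SE 0.18) at 3 days and 0.0014 (SE 0.18) at 5 days, with limma adjusted p of 0.102, 0.164 and 0.998. DESeq2 on the recovered reads gave adjusted p of 0.00496, 0.0996 and 1.00 for the same times. Of the 878 windows of 100 bases in the Rps3a1 transcript, 45.3% also occur in another of 6 annotated genes, so its level holds only reads that could be placed.

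Rpl29, a large subunit protein, was nearly absent in some mice and not in others of the same group. It had 202, 333 and 98.0 FPM at 6w+dox, and 176, 208, 7.42 and 6.39 FPM at 12w+dox, where the low values are both males. In 12w-res it had 275, 236, 141, 295 and 133 FPM, and here the males had 275 and 236. The fitted log2 fold change of 12w-res against 12w+dox was 2.45 (SE 0.89), with an adjusted p of 0.0428 in limma, 0.287 in edgeR and 0.330 in DESeq2. Without the 12w+dox males it did not remain, since the females alone gave -0.11. A low value was also seen in a short-term female. The 1d -dox mice had 57.4, 6.60, 96.9 and 109 FPM, and all other short-term mice had between 37.7 and 133. Windows of 100 bases of its transcript are shared with 27 other annotated genes, which makes its level uncertain.

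Paralogs did not all move with the family. Rpl22l1, which can take the place of Rpl22 in the large subunit, had 27.3, 30.5, 31.9 and 20.9 FPM at 12w+dox and 77.0, 60.1, 46.0, 50.6 and 41.7 in 12w-res, with no overlap. Its log2 fold change was 0.97 (SE 0.22, limma adjusted p = 0.00334). Rpl22 had 109.7, 137, 128 and 99.7 FPM at 12w+dox and 157, 131, 134, 139 and 119 in 12w-res, which overlapped, with a log2 fold change of 0.20 (SE 0.17, limma adjusted p = 0.377) that was below 0 under total reads. The median of all genes under total reads was -0.61. Rpl22l1 made up 25.6% to 32.9% of the reads of the pair in 12w-res. Its share was 17.3% to 19.9% in the 12w+dox mice and 28.5% to 30.8% in those at 6 weeks. At 3d -dox its share was 6.94% to 7.86%, below the 8.79% to 12.2% of 16w +dox. The longest coding transcripts have 552 bases in Rpl22l1 and 2051 in Rpl22. The part of transcript length in the share of the pair was not tested. Of the 100-base windows of Rpl22l1, 50.8% also occur in other annotated genes.

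**Figure D4:**
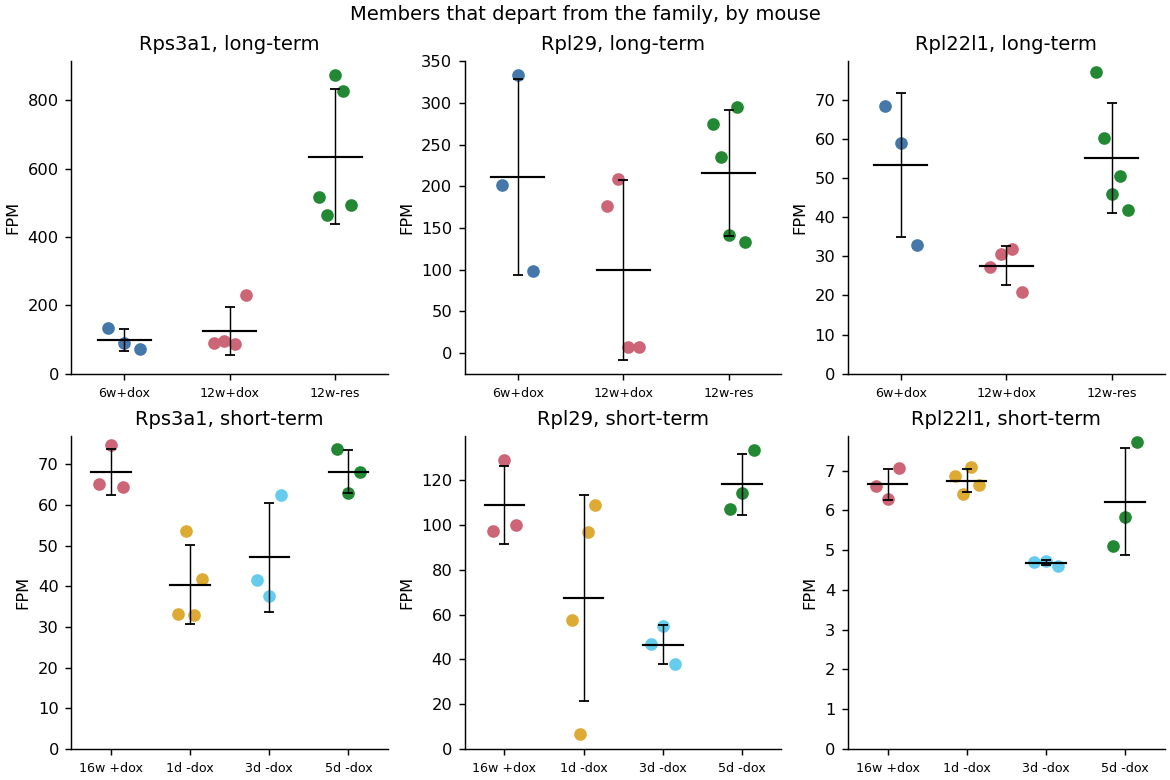
FPM of Rps3a1, Rpl29 and Rpl22l1 in each mouse, long-term groups above and short-term groups below. Points are mice and bars the group mean and SD. Rps3a1 is high in all 5 12w-res mice, Rpl29 is near 0 in the 2 males of 12w+dox and in 1 mouse of 1d -dox, and Rpl22l1 is low at 12w+dox and at 3d -dox.

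Rps27l, a relative of Rps27 known as a p53 target, had 23.4, 27.2, 33.5 and 24.7 FPM at 12w+dox and 52.2, 43.1, 47.6, 54.0 and 47.6 in 12w-res. The groups did not overlap, and the log2 fold change was 0.84 (SE 0.15, limma adjusted p = 0.000574). Rpl7l1, a nucleolar relative of Rpl7, overlapped between these groups, at 55.3 to 66.9 FPM and 58.4 to 72.1 FPM, with a log2 fold change of 0.093 (SE 0.11) that turned below 0 under total reads, where the median of all genes was -0.61. Rpl7 itself gave 0.76 (SE 0.19, limma adjusted p = 0.00721), and the share of Rpl7l1 in the pair went from 10.8% to 15.1% at 12w+dox down to 7.27% to 9.63% in 12w-res. This pair too differs in length, with longest coding transcripts of 2606 bases in Rpl7l1 and 1163 in Rpl7, and the part of length was not tested. Rps4l gave 0.29 (SE 0.38), with a sign that changed between alternatives, beside 0.53 (SE 0.18, limma adjusted p = 0.0340) for Rps4x. The call of Rps4x was lost in 12 of 28 alternatives, and in another, total reads, its sign turned (-0.13). Rps4l took 3.42% to 9.21% of the pair at 12w+dox, 3.42% to 9.70% in 12w-res and 10.3% to 12.5% at 6w+dox. Rpl32l, listed in the short-term table only, was 0.742% to 1.78% of its pair with Rpl32.

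Among the proteins of the ribosomal stalk, which recruits translation factors, all 3 were higher in 12w-res than at 12w+dox in limma. Rplp0 had 341 to 567 FPM at 12w+dox and 702 to 851 in 12w-res, a log2 fold change of 0.68 (SE 0.20, adjusted p = 0.0163) that was 0.017 under total reads. Rplp1 had 273 to 402 and 549 to 819 FPM, a log2 fold change of 0.88 (SE 0.19, adjusted p = 0.00265) that was 0.22 under total reads. Rplp2 had 135 to 179 and 187 to 272 FPM, a log2 fold change of 0.50 (SE 0.17, limma adjusted p = 0.0349) that was -0.16 under total reads. The median of all genes under total reads was -0.61 in this comparison. The call was lost in 4 of 28 alternatives for Rplp0, 2 for Rplp1 and, beside total reads, 9 for Rplp2. At 12w+dox against 6w+dox Rplp1 and Rplp2 were lower (-0.75 and -0.74), calls that were lost in 11 and 6 of 28 alternatives. With the length trend removed the values were -0.016 and -0.31. In that comparison Rplp0 gave -0.094 (SE 0.23, limma adjusted p = 0.799).

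Rpl5 and Rpl11, which with 5S ribosomal RNA form the particle that binds MDM2 and stabilizes p53, did not behave alike in the test. Rpl5 had 226 to 365 FPM at 12w+dox and 439 to 491 in 12w-res, without overlap (log2 fold change 0.61, SE 0.20, limma adjusted p = 0.0293). Rpl11 had 182 to 363 and 326 to 438 FPM, with overlap (log2 fold change 0.46, SE 0.24, limma adjusted p = 0.143). The difference between the 2 genes was not tested. Under total reads both gave values below 0 (-0.051 and -0.20), where the median of all genes was -0.61. The call of Rpl5 was lost in 8 further alternatives of 28. Against 6w+dox Rpl5 was higher in 12w-res (log2 fold change 0.64), as were Rpl4 (0.75) and Rpl3 (0.56), large subunit proteins that reach toward the exit tunnel and the catalytic centre. Rpl4 kept its call in all 28 alternatives, while Rpl5 lost it in 11 and Rpl3 in 7. Without 6w+dox replicate 3, Rpl5 gave 0.32 and Rpl3 gave 0.30, neither past the test. Rpl4 had 1208, 972 and 684 FPM at 6w+dox, 962, 959.9, 779 and 693 at 12w+dox and 1452, 1442, 1679, 1639 and 1647 in 12w-res. Every 12w-res mouse was above every mouse on dox.

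Rps13, which served as the reference gene of the study's RT-qPCR, had 144 to 276 FPM at 6w+dox, 105 to 167 at 12w+dox and 197 to 257 in 12w-res. Its log2 fold change was -0.61 (SE 0.20, limma adjusted p = 0.0424) at 12w+dox against 6w+dox and 0.64 (SE 0.18, adjusted p = 0.0114) in 12w-res against 12w+dox. The first call was lost in 17 of 28 alternatives, with a value of -0.29 under total reads. The second was -0.018 under total reads, where the median of all genes was -0.61, and was lost in 2 other alternatives. Among the short-term mice all groups lay between 16.5 and 22.2 FPM, with log2 fold changes of 0.0080, -0.12 and 0.013 against 16w +dox.

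Within 5 days of dox removal few RP genes could be told from 16w +dox. At 1 day 0 of 74 members passed in limma or edgeR, where 0.0573% of all genes were lower in limma. In DESeq2 1 member passed (Rps3a1, lower), where 166 of all 13958 genes were lower. With an unadjusted p under 0.05, 5 members were lower, against 6.28% of all genes, and 0 were higher. The median was -0.060. The 1d and 5d mice were females and the 16w +dox mice males, so that time and sex cannot be told apart in these comparisons.

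At 3 days, with males in both groups, most members had fitted changes just below 0. Their median log2 fold change was -0.21, against 0.0092 over all genes, and 67 of 74 lay below 0. In limma and edgeR 0 passed, where 0.201% of all genes were lower in limma. In DESeq2 4 passed, all lower (Rps15a, Rps16, Rps28 and Rpl22l1), where 238 of all 13958 genes were lower. With an unadjusted p under 0.05, 37 members were lower, against 8.70% of all genes, and 0 were higher. Rpl22l1 had 6.61, 6.28 and 7.07 FPM at 16w +dox and 4.69, 4.73 and 4.61 at 3d -dox, without overlap, with a log2 fold change of -0.46 (SE 0.12) and an adjusted p of 0.104 in limma and 0.0294 in DESeq2. Under total reads the median of the members was -0.060 and that of all genes 0.14. The summed melanotroph markers were 12561 to 29077 FPM at 3d -dox and 35348 to 38216 at 16w +dox, and those of other endocrine cells 163 to 865 and 193 to 206. Endothelial markers summed to 27.0 to 48.4 and 28.8 to 48.8 FPM, and fibroblast and pericyte markers to 79.2 to 158 and 106 to 141. Featureless reads made up 29.6%, 29.8% and 33.9% of the 3d -dox libraries and 25.1% to 27.2% of the 16w +dox libraries, without overlap. Unmapped reads made up 31.0% to 35.4% and 36.1% to 37.0%. In both measures 3d -dox replicate 3, the mouse with the lowest RP level (5.35), stood furthest from 16w +dox. The part of these measures in the RP levels was not tested.

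At 5 days the median was 0.027, with 0 members past the adjusted p in limma, edgeR and DESeq2, where 0.172% of all genes were lower in limma. With an unadjusted p under 0.05 there were 2 lower members (Rpl11 and Rpl7l1), against 6.33% of all genes, and 0 higher. Between the 1d and 5d females the median was 0.087. In limma and edgeR 0 members passed (0.0143% of all genes in limma), 8 were higher with an unadjusted p under 0.05 (3.65% of all genes) and 1 was lower. DESeq2 gave 2 higher, where 16 of all 13958 genes were higher. They were Rps3a1 and Rpl13a, a large subunit protein that also belongs to the GAIT complex of translational control. Rpl13a had 111, 126, 115 and 132 FPM in the 1d mice and 173, 159.6 and 161 FPM in the 5d mice, without overlap, with a log2 fold change of 0.45 (SE 0.092) and an adjusted p of 0.314 in limma and 0.00941 in DESeq2. In the females at 1 and 5 days the fibroblast and pericyte markers summed to 46.8 to 80.6 FPM, against 106 to 141 in the 16w +dox males. The endothelial markers summed to 12.4 to 21.7 against 28.8 to 48.8 FPM, and those of other endocrine cells to 21.8 to 103 against 193 to 206 FPM. The summed melanotroph markers were 25353 to 45900 FPM at 1 day and 40395 to 58009 at 5 days, against 35348 to 38216 at 16w +dox. The macrophage and pituicyte sums of the 1d mice overlapped with those at 16w +dox. The part of these cells in the RP levels was not tested.

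In both comparisons with 12w+dox, 4 other lists of translation genes had medians of the same sign as the RP genes and closer to 0. They were not refitted under total reads. Among all genes, 10.4% were higher and 12.0% lower at 12w+dox than at 6w+dox, and 19.4% were higher and 18.3% lower in 12w-res than at 12w+dox. Of 77 mitochondrial ribosomal protein genes, 24 were lower at 12w+dox than at 6w+dox (median -0.40) and 11 higher and 2 lower in 12w-res than at 12w+dox (median 0.22). Mrps28, a protein of the small mitochondrial subunit, gave log2 fold changes of -1.23 (SE 0.18) and 0.87 (SE 0.16), both past the test in limma. Of 56 ribosome biogenesis genes, which make ribosomal RNA and assemble the subunits, 3 were higher and 12 lower in the first comparison (median -0.28) and 12 higher and 5 lower in the second (median 0.14), where the share that was higher was close to that of all genes. Between 12w-res and 6w+dox 1 was higher and 8 were lower (median -0.093), against 16.8% of all genes lower, so that the share that was lower was also near that of all genes. Among the 8 were Nop56 and Fbl, core proteins of the box C/D particles that methylate ribosomal RNA, with log2 fold changes of -1.05 (SE 0.13) and -0.79 (SE 0.19). Ubtf, the RNA polymerase I factor, gave -0.77 (SE 0.12) in the same comparison.

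Of 43 initiation factor genes 3 were higher and 8 lower at 12w+dox against 6w+dox (median -0.16), and 10 higher and 3 lower in 12w-res against 12w+dox (median 0.21), where 19.4% of all genes were higher. Among the 10 were Eif5 (0.65, SE 0.097) and Eif1a (0.66, SE 0.11). The 17 genes outside the ribosome whose mRNAs also have a TOP tract had medians of -0.19 (1 higher, 3 lower), 0.45 (7 higher, 1 lower) and 0.17 (4 higher) in the 3 long-term comparisons, where 10.4% and 19.4% of all genes were higher and 12.0% and 18.3% lower in the first 2, and 33.8% passed in either direction in the third. The elongation factors Eef1g and Eef2 gave 0.99 (SE 0.14) and 0.60 (SE 0.19) in 12w-res against 12w+dox, and Tpt1 gave 0.98 (SE 0.24). Among 21 regulators of the mTORC1 and MYC pathways 3 were higher and 5 lower in 12w-res than at 12w+dox (median -0.025), against 19.4% and 18.3% of all genes. Eif4ebp1, an inhibitor of cap-dependent translation that mTORC1 switches off, had a mean of 10.2 FPM after 6 weeks on dox and of 3.60 after 12 weeks, and 19.9 in the 12w-res mice (log2 fold change 2.29, SE 0.33, limma adjusted p = 0.000133, against 12w+dox). Mtor and Myc gave 0.011 (SE 0.14) and -0.34 (SE 0.36), neither past the test.

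**Figure D5:**
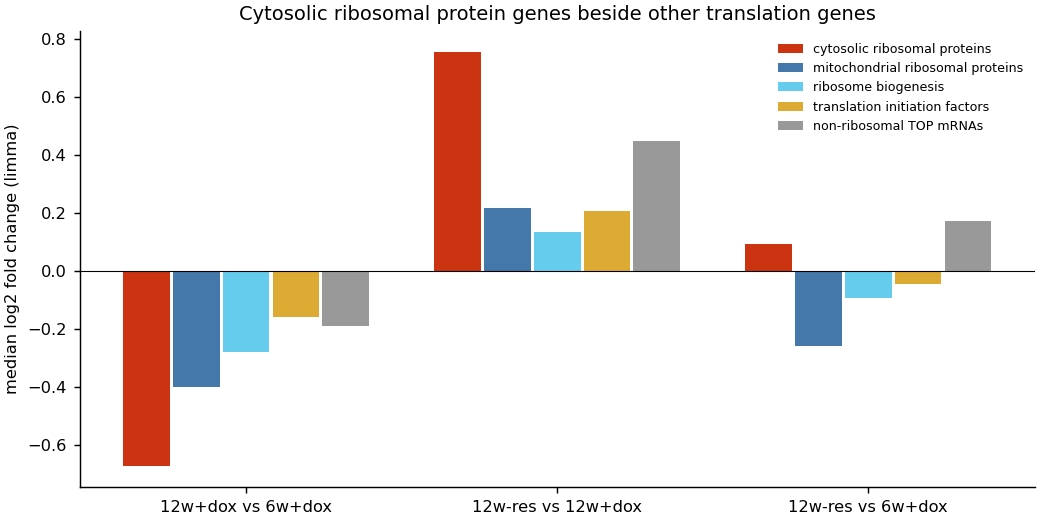
Median log2 fold change (limma) of the cytosolic RP genes and of 4 other lists of translation genes in the 3 long-term comparisons. Each bar is the median over the genes of a list. The RP bar is the longest in both comparisons with 12w+dox (-0.67 and 0.75, the latter 0.097 under total reads, where all genes gave -0.61), and in 12w-res against 6w+dox the bars lie between -0.26 and 0.17.

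Sequence features separated the members little. In 12w-res against 12w+dox, the 35 members with a TOP tract within 10 bases of the annotated start had a median of 0.80 (29 higher) and the 23 without had 0.70 (20 higher). Since 58 of 59 members had a tract within 40 bases, this split depends on where the annotated start lies. The 34 members that share over 50% of their 100-base windows with another annotated gene had a median of 0.79 (30 higher), and the other 44 had 0.72 (37 higher). The 6 members of the long-term table that share no window had 0.62 (5 higher). In all, 72 of the 79 members shared at least 1 window with another gene, so the level of a single RP gene is less certain than that of the family.

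Per kilobase of transcript, Rplp1 had the highest level in both experiments (mean 1067 FPM per kb over the long-term mice, 547 to 1641). It was followed in the long-term mice by Rpl10 (936), Rpl19 (769), Rpl4 (765) and Rpl23a (698). The ranges over mice of all 5 overlapped, so that their order is not firm.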

How the data were processed

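RNA was sequenced as paired-end 150 base reads from pituitaries of 25 mice (12 long-term, 13 short-term), each a separate animal. The authors mapped reads to mm10 with STAR and deposited, per RefSeq gene and mouse, a signal in FPM scaled by DESeq2 size factors. They kept a gene if over 50% of a condition's mice had at least 10 reads on it. Counting tool and strand are not given in the sources used here. All values were whole multiples of 1 read within 0.1 of a read (100%), so reads were recovered. Lines naming no gene were left out: 2 in the long-term table, and in the short-term table unmapped (median 37.0%), featureless (26.7%), multimapping (6.90%) and ambiguous (0.223%) reads. Unused per-sample columns numbered 0. Columns of the authors' own comparisons were not used.

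The test was limma 3.58.1 (R 4.3.3) on log2(FPM + 0.5) across all genes of a table, with a trended prior, all groups of an experiment in 1 fit and Benjamini-Hochberg adjustment. Genes past an adjusted p of 0.05 are written as higher or lower, and the 2-fold limit is a log2 change beyond 1 in size. On this scale the change of low genes is understated. Alternatives included edgeR 4.0.16 and DESeq2 1.42.0 on recovered reads. The fits were tested on simulated data. The pseudocount, filter, scaling, covariates and each mouse left out in turn were varied. Replicate pairs all differed by more than counting noise. Transcript lengths and windows came from a GENCODE annotation and start sites from RefSeq (GRCm38.p6).

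Genes named are Rb1, GFP, Rps13, the paralogs and partners, Rpl5, Rpl11, the stalk genes, members past both limits, the 3 members of largest change in each direction per comparison and up to 4 genes per list. Others (Rpl13a, Rps15a, Rps16, the members that did not pass) were named after their values were seen. The results of some genes are not reported here. Members and lists were chosen with earlier results of these data known. Same-numbered mice were separate animals whose deviations from their group means correlated between -0.21 and 0.24, so the numbers do not pair them.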

Additional observations from a re-analysis of the deposited data

Results flagged for a closer look

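In the groups of 4 or more mice, 106 sets of values were examined, each a gene, the family median or the RP share in 1 group. Of these, 5 had a mouse far from the others of its group, and chance alone gives about 1 in 20. The sets come from the same mice and are not independent of each other. At 12w+dox, replicate 4 was the lowest for Rpl7 (330.5 FPM, the next mouse 455) and for Rps26 (145 FPM, the next 198), and the highest for Rps3a1 (230.1 FPM, the next 95.3). In 12w-res, replicate 1 had the highest share of reads on RP genes (2.84%, the next 2.55%). At 1d -dox, replicate 3 was the lowest for Rpl32 (48.1 FPM, the next 52.9).

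The fitted change of Rpl29 between 12w-res and 12w+dox differed between male and female mice. The log2 fold change was 5.11 in males and -0.11 in females, a difference of 5.22 (limma interaction term, adjusted p = 0.000886, 2 males against 2 males). It was the only member among 78 to pass, where 13 of 15315 genes passed, and 9 members had an unadjusted p under 0.05. The difference for Rpl29 rested on the 2 males at 12w+dox, which had 7.42 and 6.39 FPM. A female at 1d -dox had 6.60 FPM, so that sex and single mice cannot be told apart.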

How the results depend on the processing

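Between 12w+dox and 6w+dox, the count of 40 lower RP genes became 24 with totals of recovered reads, with or without Pomc, 15 with only the groups compared, 22 with the replicate block, 22 with sex as a covariate, 1 among females only, 1 with the 12w+dox males left out and 8 with the transcript length trend removed. The last 2 were chosen after seeing the data. The count past both limits, 8, became 15 with edgeR or DESeq2, 1 with totals, 2 with totals without Pomc, 0 among females or without the males, and 1 with the length trend removed, which also took the median from -0.67 to -0.17. Leaving out each mouse in turn gave medians from -1.01 to -0.45, 3 to 68 lower and 0 to 39 past both limits. Shares of all genes were not counted in any fit without a single mouse. In 12w-res against 12w+dox, totals gave a median of 0.097, 10 higher, 3 lower and 1 past both limits; totals without Pomc gave 3 past both limits, females 5 higher and 3 past both, males left out 21 and 3, and the length trend removed 4 past both. Each mouse left out gave 44 to 72 higher and 8 to 19 past both limits. In 12w-res against 6w+dox, totals gave a median of -0.24, 2 higher, 15 lower and 1 lower past both limits, totals without Pomc 10 higher, the replicate block 2 higher, females 2 higher, 1 lower and 1 lower past both, and the length trend removed 28 higher. Each mouse left out gave 2 to 12 higher and 0 to 16 lower, with 1 higher (Rps3a1) and 0 to 1 lower past both limits. In the short-term mice DESeq2 gave 1 lower at 1 day, 4 lower at 3 days and 2 higher between 1 and 5 days, against 166, 238 and 16 of all 13958 genes. There totals took the 3-day median from -0.21 to -0.060, the length trend removed gave 1 lower at 3 days, and each mouse left out gave 0 to 1 lower and 0 to 1 past both limits at 3 days. The replicate block changed no other count by over 1.5 times. Signs turned in 12w-res against 12w+dox under totals for Rps13 (-0.018), Rplp2 (-0.16), Rpl5 (-0.051), Rpl11 (-0.20), Rpl22 (-0.46), Rpl7l1 (-0.56, and -0.098 without Pomc), Rps4l (-0.35) and Rps4x (-0.13). They also turned among females for Rpl29 (-0.11) and Rps4l (-0.48), without single mice for Rps4l (-0.11 to 0.54, below 0 without 12w+dox replicate 4), and without the males for Rps4l (-0.28). Against 6w+dox, Rpl29 turned to 0.028 at 12w+dox among females and without the males. Under totals the median of all genes was -0.61 in 12w-res against 12w+dox. Some of the other alternatives hold fewer mice, and beyond that the cause was not tested. Of 1441 refitted values of single genes, 1243 kept direction and side of the threshold, 168 lost the call, 15 gained it and 15 turned sign. Low read counts limit Rpl34 and, in the short-term table, the low paralogs most. What set the low count of Rpl34 was not tested. Multimapping reads form a line of their own in the short-term table and their treatment in the long-term table is not given in the sources used here, and 3 to 5 mice a group leave sex and single mice with much weight.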
